A study of Mus musculus with 2 samples.

Results

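Spliced antisense models are transcript models that lie on the opposite strand to a gene and hold at least 1 intron. They were chosen by 2 deposited values, the antisense class and an exon number of 2 or more, so their class and exon number are a description and not a result. The rule found 676 models among 132801 in replicate 1 and 717 models among 133303 in replicate 2. Matched between the libraries on chromosome, strand and every intron position, they gave 1272 intron chains, out of 155902 intron chains of all classes. These chains fell into 1189 loci, that is, stretches of 1 strand whose models overlap, antisense to 1103 annotated genes, with 27 chains opposite only to genes outside the annotation.

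The data came from total RNA of the left cerebral cortex of adult B6NCrl mice aged 6 months, read end to end by long-read RNA-seq. There was 1 group of 2 libraries, given as biological replicates 1 and 2, and no treatment, genotype or time was compared. The labels attach 1 donor record to both tissue samples, so the spread between the libraries may be technical, and every p-value here compares 2 libraries against counting noise. The values are whole reads per model, 1306424 in replicate 1 and 1304133 in replicate 2, of which 76.5% and 70.2% fell on spliced models. A read was worth 0.765 and 0.767 CPM (counts scaled to a library of 1000000 reads), and the limit that a count of 0 allows, 3 reads, was 2.30 CPM in either library. The synaptic gene Snap25 (4132 reads in replicate 1 and 3834 in replicate 2), the myelin gene Mbp (4171 and 3314), the astrocyte gene Aldoc (2265 and 2230) and the inhibitory neuron gene Gad1 (227 in each) were all read, so markers of neurons, astrocytes and oligodendrocytes were present. In 1 field the labels call the tissue male, and in another field no sex was recorded. Kdm5d, Uty, Eif2s3y and Ddx3y, genes of the Y chromosome, had 0 reads in both libraries, and Xist, the RNA that coats the inactive X chromosome, had 29 and 27. The only spliced antisense chain on chromosome Y, opposite Gm28295, rested on 1 read of replicate 1.

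Antisense transcripts arise where a promoter fires on the strand opposite a gene, often next to the start of that gene, and many cortical genes have such a partner. The spliceosome reads the strand of an RNA: nearly every intron starts with GT and ends with AG on the transcribed strand, with GC as the main variant of the first pair. Read on the opposite strand the same intron runs from CT to AC. The bases at the intron ends therefore tell which strand an intron's splice sites lie on.

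The introns of the spliced antisense chains were of 2 kinds. Of 2064 different introns, 374 (18.1%, 95% exact interval 16.5 to 19.9%) had both ends at the ends of an annotated intron of the opposite strand, and are called mirrored below. The other 1690 did not match an annotated opposite-strand intron at both ends, and are called own introns below. This class is not free of near matches. Of the 1690, 15 had 1 end at an annotated splice site of the opposite strand, and 21 were also read on the opposite strand. With ends allowed to lie 10 bases apart, the mirrored share was 20.5%. By chain, 242 had all introns mirrored, 28 had part of them mirrored and 1002 had none. The windows below are shown because they hold the intron ends of both kinds. They were read from GENCODE M21 transcripts and RefSeq promoters of GRCm38, the build also called mm10, run 5′ to 3′ on the strand of the antisense model, and have the first or last 2 bases of the intron in capitals.
Hcn2, own donor (intron chr10:79716515-79716815, minus strand): gtccgccgactccggGTgcgagggggtcgt
Hcn2, own acceptor (intron chr10:79716515-79716815, minus strand): cctcaccccacacAGggatggatggggaaa
Zrsr2, own donor (intron chrX:163958846-163972080, plus strand): ttccaaaggaatcagGTttgtgacccttgt
Dnajb12, own donor (intron chr10:59894586-59897675, minus strand): aggaagcagcccgagGTaggctgtctgtct
Fgfrl1, own acceptor (intron chr5:108684294-108693835, minus strand): acttcctgcctccAGgtgcctgcctgactg
H2afy2, own acceptor (intron chr10:61783634-61784101, plus strand): attgtccttctgcAGtggaaccacagggcc
Gpr85, mirrored donor (intron chr6:13837074-13838278, plus strand): ttgccatcagaacatCTgaagaagaggaag
Cst3, mirrored acceptor (intron chr2:148872044-148872816, plus strand): atatcaagtacctACcctcatcagatgggg
Ptn, mirrored acceptor (intron chr6:36715763-36741277, plus strand): aggacagcttcttACcttgaggcttgggct
Ubald1, mirrored donor (intron chr16:4876422-4879616, plus strand): ggtgctgagggctgtCTgcagagagaaagg
Ubald1, mirrored acceptor (intron chr16:4876422-4879616, plus strand): ggttcccctacgcACctcgaactgccagtg
Hsp90ab1, mirrored donor (intron chr17:45570567-45570665, plus strand): ccgttccttctccaaCTaaatcaccaatga
Hsp90ab1, mirrored acceptor (intron chr17:45570567-45570665, plus strand): caagcccatactcACatagagggtgatggg

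The bases of mirrored introns follow from how they were sorted, since an annotated GT-AG intron reads CT-AC on the opposite strand, and are given as a description. Both ends were known for 24 of the 374, and all 24 were CT-AC. Of 56 with a known first pair 55 began with CT, and of 72 with a known last pair 70 ended with AC. The other introns were sorted by position without regard to their bases. Their first pair was GT in 341 of 370 (92.2%), GC in 19 and CT in 10, and the last pair was AG in 248 of 259 (95.8%). Both ends were known for 103 of them, of which 90 were GT-AG (87.4%, exact interval 79.4 to 93.1%), 7 GC-AG, 4 CT-AC and 2 GT-AT. Bases could be read only where an annotated exon or a RefSeq promoter covers the intron end, so these introns are not a random sample. Whether either library kept the strand of the RNA is not given in the sources used here, and the part of read orientation in the mirrored chains was not tested.

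The 2 kinds of chain lay differently against the sense gene. The share of its exon bases that a chain shares with sense exons had a median of 100% in the 242 mirrored chains and 1.46% in the chains with their own introns, of which 393 (40.3% of the 975 with an annotated sense gene) touched no sense exon. Part of that contrast follows from sharing introns, since a mirrored chain must abut sense exons. The start and end positions were not used to sort the chains. They were taken from 1 library per chain, that with more reads of the antisense class, and often differed between libraries. Of chains read in both libraries, 33 of 55 mirrored chains and 59 of 117 with their own introns had the same start in each. The same end was given in 41 and 31 of them. A mirrored chain started within 10 bases of an annotated 3′ end of its sense gene in 133 of 242 cases (55.0%, exact interval 48.5 to 61.3%), against 59 of 975 chains with their own introns (6.05%, 4.64 to 7.74%). It ended within 10 bases of an annotated sense start in 86 cases (35.5%), against 48 (4.92%). Chains with their own introns instead started within 500 bases of a sense start in 235 of 975 cases (24.1%, 21.4 to 26.9%), against 13 of 242 mirrored chains (5.37%, 2.89 to 9.01%). The positions coincide to the base: of all starts near a sense 3′ end, 203 were at a distance of 0 and 2 at 1 to 10 bases, and how the deposited ends were set is not given in the sources used here. No test was made between the kinds, because chains of a library share its reads and its processing.

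**Figure D1:**
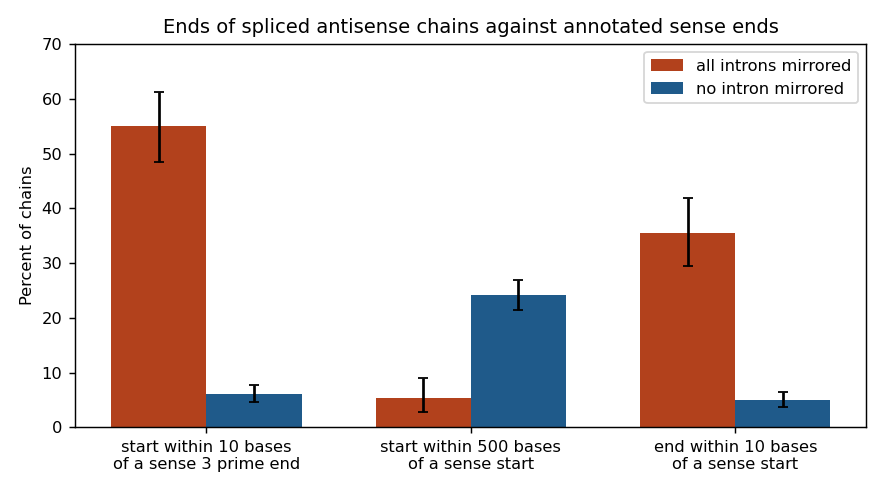
Percent of chains (vertical axis) whose start or end lies near an annotated end of the sense gene, for chains with all introns mirrored (red, left) and with no intron mirrored (blue, right); error bars are exact 95% binomial intervals over 242 and 975 chains. Starts at a sense 3′ end made up 55.0% of mirrored chains against 6.05%, and starts within 500 bases of a sense start 5.37% against 24.1%.

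The outlines of 4 loci show both arrangements. Cst3 encodes cystatin C, a secreted protease inhibitor of astrocytes, and its antisense chain (chr2:148871722-148875451, plus strand, 3 exons) retraced the sense transcript, with both introns in the same place. Sparc encodes a secreted matrix glycoprotein, and its antisense chain (chr11:55394500-55395949, plus strand, 2 exons) retraced the last 2 exons. Kcnh7, a voltage-gated potassium channel gene, had an antisense chain of 3 exons (chr2:63184170-63196614, plus strand) that started in the first sense exon and ran away from the gene. Hcn2, the gene of a channel opened by hyperpolarization, had a chain of 2 exons (chr10:79716193-79717219, minus strand) that started in the first sense exon, with 55.6% of its exon bases over sense exons.

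**Figure D2:**
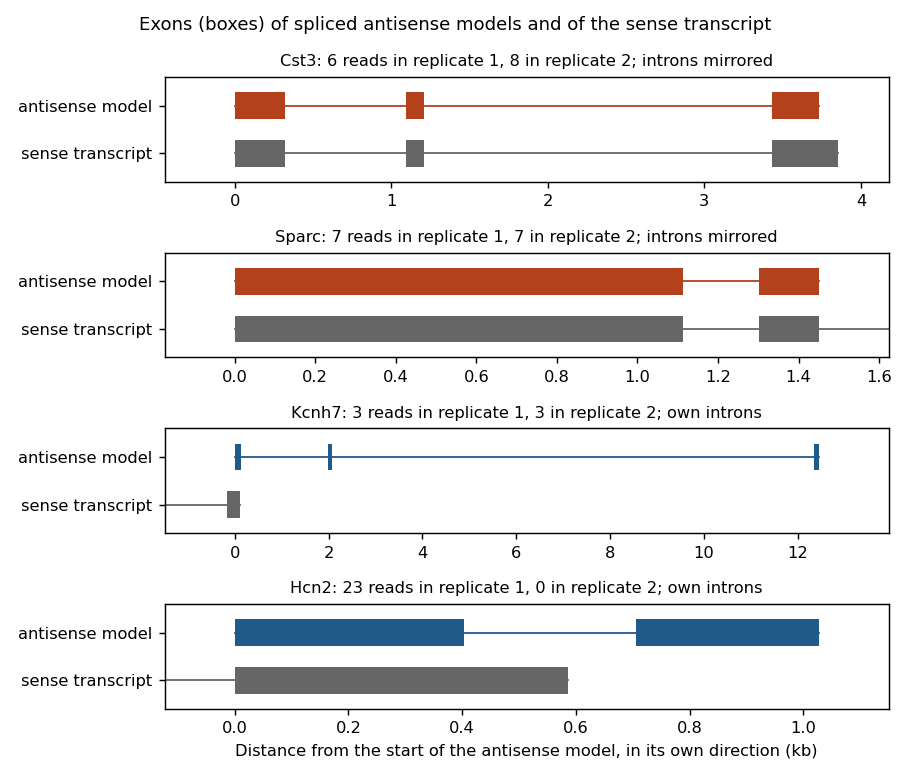
Exons (boxes) and introns (lines) of the antisense model (upper track) and of the annotated sense transcript most like it (lower track, grey), by distance in kb from the antisense start, in 4 loci. In Cst3 (6 reads in replicate 1, 8 in replicate 2) and Sparc (7 and 7) the introns of both strands coincide, and in Kcnh7 (3 and 3) and Hcn2 (23 and 0) the antisense model leaves the sense gene at its first exon.

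By outer span, 683 of the 1272 chains (53.7%) lay inside the sense gene, 300 reached its 5′ end, 168 its 3′ end and 94 spanned it. Of the mirrored chains 73.6% lay inside, 7.02% reached the sense 5′ end and 18.2% the 3′ end. Among chains with their own introns 48.7% lay inside, 27.6% reached the 5′ end and 12% the 3′ end. Sense genes were protein-coding for 96.7% of mirrored chains and 83.2% of the others. Both kinds were short, with a median exon length of 992 and 963 bases, and 2 exons made up 71.1% of mirrored chains and 57.3% of the others. The median intron length was 1594 bases in mirrored introns and 2092 in the others, against 1484 in annotated introns. The spans of 59 chains also overlap an annotated gene of their own strand.

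Some of the chains started near the start of a RefSeq gene on their own strand. With the RefSeq promoters of GRCm38.p6, 166 of 964 chains with their own introns (17.2%) started within 1000 bases of a RefSeq gene start on the same strand, and 53 within 100. For mirrored chains the counts were 4 of 236 (1.69%) and 0. Among chains of both libraries they were 35 of 112 (31.2%) and 2 of 53 (3.77%). The chain opposite Sdk2, a synaptic adhesion gene, had 1 read in replicate 1 and 2 in replicate 2 and started at the RefSeq start of Gm39468 (0 bases away). The chain opposite Ggnbp2 (1 read in each library) started 67 bases after that of Ggnbp2os, whose symbol marks it as the opposite strand of Ggnbp2. The Kcnh7 chain began 44 bases before the start of Gm34110. The RefSeq promoter of Gm34110 is printed because it holds that start, with the bases from the start of the antisense model onward in capitals.
Gm34110 promoter (GRCm38.p6, chr2:63183964-63184263, plus strand): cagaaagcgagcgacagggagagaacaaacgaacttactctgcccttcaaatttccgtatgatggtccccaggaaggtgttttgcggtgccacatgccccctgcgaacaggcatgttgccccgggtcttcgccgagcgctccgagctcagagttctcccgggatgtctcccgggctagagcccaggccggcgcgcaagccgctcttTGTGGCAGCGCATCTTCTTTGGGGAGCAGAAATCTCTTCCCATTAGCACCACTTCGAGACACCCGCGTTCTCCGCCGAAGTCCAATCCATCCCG

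The polyadenylation hexamer AATAAA, the signal before most mRNA 3′ ends, was looked for on the chain's strand in its last 50 bases and on the opposite strand in its first 50. In the last 50 bases it stood in 3 of the 213 mirrored chains with known sequence (1.41%) and in 12 of 153 chains with their own introns (7.84%), against 40.6% of annotated protein-coding transcripts. In the first 50 bases on the opposite strand it stood in 62 of 228 mirrored chains (27.2%) and 29 of 365 others (7.95%), against 0.828% of protein-coding transcripts. Part of that contrast follows from the start positions. In 133 of 242 mirrored chains the start lay within 10 bases of an annotated sense 3′ end, where the opposite strand holds the end of a sense transcript. The end sequence was known only where annotated exons or RefSeq promoters cover it. That held at the last 50 bases for 213 of 242 mirrored chains and 153 of 1002 others, so the others are not a random sample. A match is a description of these windows and not a used site.

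Few reads fell on the spliced antisense models. They took 997 reads in replicate 1 (0.0763%, exact 95% interval 0.0717 to 0.0812%) and 993 in replicate 2 (0.0761%, 0.0715 to 0.0810%), a mean of 0.0762% ± 1.22e-04 (SD, n = 2). The reads of the libraries did not differ beyond counting noise (Fisher's exact test, two-sided, p = 0.964). That equality rests on 1 locus. Without the locus opposite Gm10801 the counts were 892 and 991, shares of 0.0683% and 0.0760% (Fisher's exact test, two-sided, p = 0.0211). The locus was left out after its uneven counts were seen, which itself lowers replicate 1, so this p-value is a description only. The order turned with every spliced model of the genes called antisense, whatever its class, at 0.116% and 0.106% (Fisher's exact test, two-sided, p = 0.0190). That count, also chosen after seeing the data, again includes the Gm10801 locus with its 105 and 2 reads. It was not repeated without the locus.

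The kinds of chain were spread unevenly over the libraries. Mirrored chains took 188 reads in replicate 1 and 318 in replicate 2. The mirrored share of introns was 15.3% (exact 95% interval 13.2 to 17.5%) and 22.8% (20.5 to 25.3%). Introns share reads and loci, so these intervals are no test between the libraries, and none was made. Chains with their own introns took 796 and 654 reads. With the reads that a library gave to another class, the counts were 236 and 352 for mirrored chains and 858 and 681 for the others. Leaving out the loci opposite Gm10801 and Slitrk5 they were 198 and 351, and 753 and 679. Unspliced antisense reads, given next, were also fewer in replicate 1.

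Just outside the threshold on exons, unspliced antisense models took 57083 reads (4.37%) in replicate 1 and 79019 (6.06%) in replicate 2. Their leading models lay opposite CT010467.1 (4436 and 2642 reads), the actin gene Actb (3064 and 3717), the G-protein subunit gene Gnb1 (2284 and 2302) and the microtubule gene Map1b (1561 and 2116). Just inside it, the chains of 2 exons with most reads of the antisense class lay opposite Gm10801 (104 and 2 reads), Gpr85 (0 and 25), Fgfrl1 (12 and 12) and Hcn2 (23 and 0).

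Most models rested on 1 read, 586 of 676 (86.7%) in replicate 1 and 592 of 717 (82.6%) in replicate 2. Over both libraries 1014 chains (79.7%) had 1 read in all, 54 had 5 or more and 19 had 10 or more. Reads on the same chain were found in both libraries for 174 chains, whatever their class. Of these, 121 were of the antisense class in both, and the other 53 had been given another class by 1 library, 42 of them within a gene that the library called antisense and 11 elsewhere. Of the antisense class chains of replicate 1, 144 of 676 (21.3%) were read in replicate 2, and of those of replicate 2, 151 of 717 (21.1%) were read in replicate 1. No unannotated gene had more than 1 model of the antisense class in a library. Unless stated otherwise, the reads of a chain below include those of any class. Of the mirrored chains 22.7% were read in both libraries, and of the chains with their own introns 11.7%.

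Chains with more reads were found again more often. Of chains with 1 read, 15% in replicate 1 and 12.8% in replicate 2 were found in the other library, and at 3 to 4 reads 71.4% and 69.7%. Chains with a splice site outside the annotation but on the sense strand, the class NNC, gave 12.7% and 12.6% at 1 read and 72.2% and 73.9% at 3 to 4 reads. Spliced intergenic models gave 8.99% and 8.41% at 1 read, and known chains 42.7% and 49.8%. All 17 antisense chains of 5 to 9 reads in replicate 2 were found in replicate 1, and 15 of 17 in replicate 1 were found in replicate 2 (88.2%). The bin of 10 or more reads held only 3 antisense chains in each library, and the 1 that was not found again lay opposite Hcn2.

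**Figure D3:**
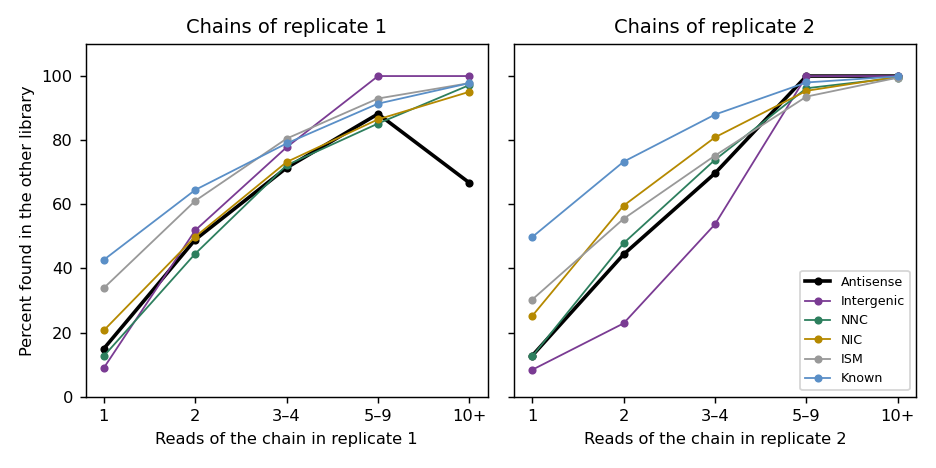
Percent of spliced chains of each class found in the other library (vertical axis) by the chain's reads (horizontal axis), for replicate 1 (left) and replicate 2 (right). The antisense line (black) lies at 15% and 12.8% for 1 read, beside NNC at 12.7% and 12.6% and below known chains at 42.7% and 49.8%; its last point rests on 3 chains per library.

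Genes with more sense reads more often had a mirrored chain. Of 16349 spliced genes with 0 sense reads 1 had one, of 7280 genes with 10 to 99 reads 96 (1.32%), of 3684 genes with 100 to fewer than 1000 reads 118 (3.20%) and of 376 genes with 1000 or more 17 (4.52%). The share with a chain on its own introns was 0.642%, 4.70%, 4.99% and 5.05% in the same bins, and so changed little from 10 reads upward. Sense reads had a median of 126 for mirrored chains and 25 for the others. Within each kind the number of antisense reads followed that of sense reads only weakly, with a Spearman correlation of 0.0953 over 242 mirrored chains and 0.0321 over 975 others. These are descriptions across chains that share library and depth. In bulk tissue, fewer cells of a type and less RNA per cell cannot be told apart.

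**Figure D4:**
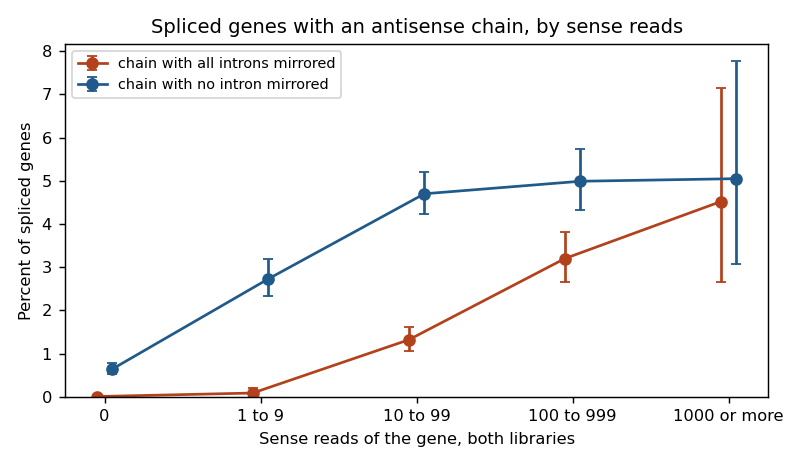
Percent of spliced genes with an antisense chain (vertical axis) by the gene's sense reads in both libraries together (horizontal axis), for chains with all introns mirrored (red) and none (blue); error bars are exact 95% binomial intervals. The red line reaches 4.52% in genes with 1000 or more reads and lies at 1.32% in those with 10 to 99, while the blue line lies between 4.70% and 5.05% over the same bins.

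On the mirrored introns themselves the sense strand dominated. Over the 374 introns 922 reads ran antisense and 151022 sense, so the antisense strand made up 0.607% of the reads across them. Its median share per intron was 3.12%, at a median of 50.5 sense reads. Each intron entered through at least 1 antisense read, so annotated introns without one are left out and both shares are raised by that choice. In 24 introns antisense reads outnumbered sense reads, and 14 had 0 sense reads. In Cst3 the first mirrored intron had 7 antisense reads in replicate 1 and 9 in replicate 2, against 10858 and 7721 sense reads. In Sparc it had 7 and 7, against 117 and 143. In Gpr85 it had 8 and 25, against 16 and 25. In Slitrk5 it had 38 and 1, against 2 and 1, and in Synpo, a gene of the spine apparatus on chromosome 18, 3 and 5 against 2 and 1. The antisense share of an intron thus ranged from a trace in Cst3 to the larger part in Slitrk5 and Synpo.

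The 20 loci of most reads, among those with a chain in both libraries, lay opposite genes of varied function. Of their leading chains 10 had all introns mirrored and 10 none. The locus of most reads lay opposite Gm10801, a predicted gene (chr2:98662498-98666547, minus strand, an intron of 3467 bases), with 105 reads in replicate 1 and 2 in replicate 2 on 2 chains. Whether these reads belong to this place or to similar sequence elsewhere was not tested. Slitrk5, a transmembrane protein gene of neurons, followed with 38 and 1 on 1 chain. The start of this chain lay at position 111681233 in replicate 1 and 111679342 in replicate 2. Only the start of replicate 2, with 1 read, was compared with the sense gene, and it lay at an annotated sense 3′ end. Gpr85, an orphan receptor gene of the brain, had 9 and 28 on 2 chains. Ptn, the gene of the growth factor pleiotrophin, had 6 and 20. In each of these 4 loci the counts of the libraries lay at least 3-fold apart.

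Fgfrl1, a receptor-like gene of the FGF family, had 12 antisense reads in each library on a chain that starts at an annotated sense start and shares 0.143% of its exon bases with sense exons. Its sense reads were 7 and 7, fewer than the antisense reads. H2afy2, a macroH2A histone gene, had 12 and 8 antisense reads, with 43 and 37 sense reads. Gnas, the gene of the stimulatory G-protein subunit, had 6 and 10 reads on a chain of 3 exons in its introns, with 2126 and 614 sense reads. Dnajb12, a co-chaperone gene, had 7 and 7, and Zrsr2, a splicing factor gene of the minor spliceosome, 6 and 7. Lypd6b had 7 and 5, Rai1 7 and 4, and Ank3, the gene of the axon initial segment scaffold ankyrin-G, 7 and 2. The locus across H2-M10.2, one of a family of similar MHC genes, had 6 and 4 with 0 sense reads in both libraries. The gene lies wholly within the first intron of the leading chain, and 0% of the chain's exon bases lie over sense exons. Whether its reads belong to a similar copy elsewhere was not tested.

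The other mirrored loci among the 20 had fewer reads, and none of their leading chains passed the test between the libraries given below. Cst3 had 6 and 9 reads on 2 chains, Sparc 7 and 7, Stox2 8 and 6, Chtop, an mRNA export factor gene, 4 and 8, and Srp72, a subunit gene of the signal recognition particle, 5 and 7. Bcl2l1, which encodes the survival protein Bcl-x, had 2 and 8, and Ybx1, an RNA-binding protein gene, 6 and 4. Of the 12 mirrored chains of most reads 9 started at an annotated sense 3′ end. The exceptions were Stox2, Chtop and Synpo, at 2633, 3130 and 1876 bases from one. For Slitrk5, counted among the 9, that start rests on the 1 read of replicate 2.

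**Figure D5:**
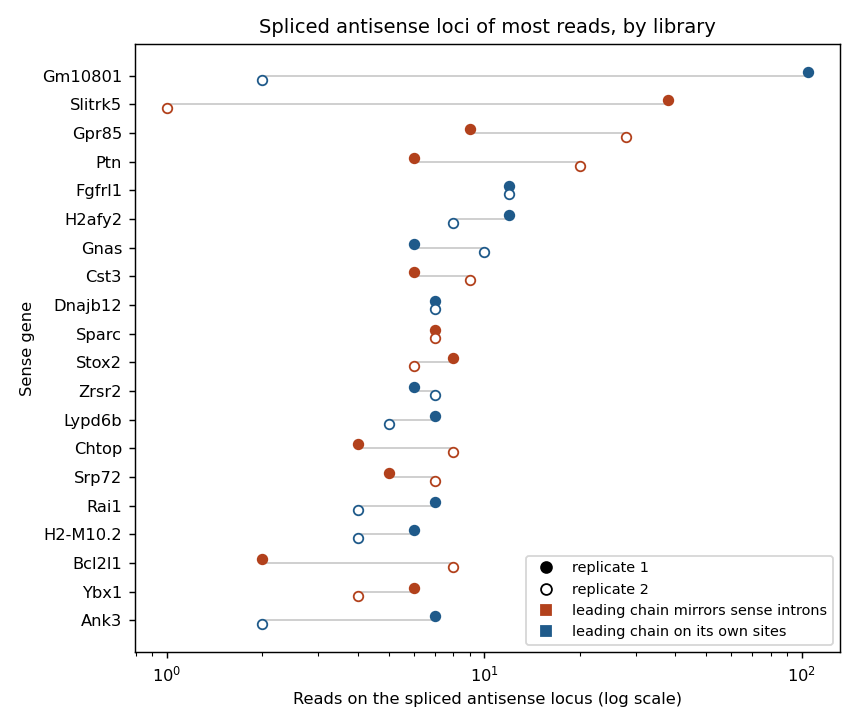
Reads (log scale) on the 20 spliced antisense loci of most reads that have a chain in both libraries, in replicate 1 (filled) and replicate 2 (open), coloured by whether the leading chain mirrors sense introns (red) or not (blue). Gm10801 (105 and 2 reads) and Slitrk5 (38 and 1) stand apart between the libraries, while Fgfrl1 (12 and 12) and Sparc (7 and 7) coincide.

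The libraries were compared chain by chain, by exact two-sided binomial tests with the expected share set from the library totals, over all 15133 spliced chains with at least 10 counts, Benjamini-Hochberg adjustment, and a ratio of at least 2-fold. Among all of these 1360 (8.99%) were called, 1137 (7.51%) higher and 223 (1.47%) lower in replicate 1. Of the 1272 spliced antisense chains only 19 had 10 counts, and a chain high in 1 library can pass that filter through that library alone. Of the 19, 4 were called, 3 higher and 1 lower in replicate 1, which is too few to set against the background. The chain opposite Gm10801 had 104 reads in replicate 1 and 2 in replicate 2, 51.9-fold higher (exact interval 14 to 434; exact binomial test, adjusted p = 1.93e-26). That opposite Slitrk5, at 38 and 1 reads, was 37.9-fold higher (6.41 to 1537; exact binomial test, adjusted p = 6.24e-09), but replicate 1 gave all 38 of its reads to another class, so that 0 and 1 reads of the antisense class remained and the chain was then not tested. That opposite Hcn2 had 23 and 0 reads (exact binomial test, adjusted p = 6.94e-06). Set against 3 counts in place of 0, the chain opposite Hcn2 was 7.65-fold higher, without the counting error of its 23 reads. The chain opposite Gpr85 was lower, at 8 and 25 reads (log2 ratio -1.59, exact binomial test, adjusted p = 0.0285). With the antisense class alone it had 0 and 25 reads (log2 ratio -5.67, exact binomial test, adjusted p = 9.74e-07). Ptn missed the threshold at 6 and 20 reads (log2 ratio -1.66, exact binomial test, adjusted p = 0.0512). For Fgfrl1, at 12 and 12 reads, the ratio was 0.998 with an interval of 0.410 to 2.43, so that a 2-fold difference was not detectable at this depth. The median log2 ratio of the 19 was -0.00, against 0.03 over all chains tested.

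Sense reads of Gm10801 were 33 in replicate 1 and 0 in replicate 2, and those of Hcn2 19 and 1. Slitrk5 had 33 and 46 sense reads and Gpr85 53 and 73. The antisense and sense counts of Gm10801 and Hcn2 were both higher in replicate 1 and those of Gpr85 both lower, while those of Slitrk5 went opposite ways. The sense counts were not tested. The part of the library in these differences was not tested.

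The chains of most reads in 1 library only were, after Hcn2, those opposite Oxr1, an oxidation resistance gene (8 reads in replicate 1 and 0 in replicate 2), Tox, a gene of an HMG-box protein (5 and 0), and Ppp2r3a, a phosphatase subunit gene (0 and 4). With fewer than 10 counts none of these 3 was tested. The Tox chain had 5 exons with all introns mirrored, and a second Tox chain of 4 exons had 1 and 2 reads. Among chains of both libraries those opposite the SNARE gene Vti1b (4 and 1 reads) and the translation initiation gene Eif2s2 (1 and 1) had the most exons, 6 each, with all introns mirrored. The chain across Krtap4-1 had 5 exons on its own introns (1 and 1 reads, none of the exon bases over sense exons). Of chains with 4 exons, those opposite Tmem121b (5 and 3 reads) and Ccdc155 (1 and 3) had the most reads. The chain of most exons in all, 11, lay opposite the kinase gene Hipk2 and rested on 1 read of replicate 2.

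Lists of cortical genes were counted as sense genes. Of 70 genes of 8 lists, 7 had a mirrored chain and 7 a chain on its own introns, 10% each, against 1.38% and 4.11% of the 17085 spliced genes with a read. No test was made, and many of these genes are highly read. Excitatory neuron genes with a mirrored chain were Nrgn (1 antisense read in replicate 1 and 0 in replicate 2) and Tbr1 (1 and 0), and Neurod2 had a chain on its own introns (0 and 1). Astrocyte genes were Cst3, the gap junction gene Gja1 (1 and 1) and the glutamate transporter gene Slc1a3 (1 and 0, own introns). Among oligodendrocyte genes only Mag, of the myelin-associated glycoprotein, had a mirrored chain (1 and 2). The synaptic vesicle genes Syn1 and Syp and the calmodulin pathway genes Camk2b, Calm3 and Ppp3ca had 1 to 4 antisense reads each over both libraries. None of the 7 inhibitory neuron, 8 microglial and 6 endothelial genes had a spliced antisense chain.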

How the data were processed

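The deposited tables hold counts, whole reads per transcript model and library, without normalization; per the file headers they also hold other values such as exon number and length, and the deposited annotations give positions of GENCODE M21 features and added models on mm10. Per the file contents the models were classed by TALON; the aligner is not given in the sources used here. Members and lists were chosen with earlier results of these data known. Introns were derived from deposited exons. Sense gene ends came from annotated transcripts. Exact tests, intervals (95%, Clopper-Pearson, counting error only) and Benjamini-Hochberg adjustment (threshold 0.05, 0.5 counts added for log2 ratios) used Python 3.11.15 and scipy 1.17.1. edgeR 4.0.16 and DESeq2 1.42.0 gave alternative library factors only, since 2 libraries of 1 group leave no residual spread. The binomial test was run on simulated Poisson counts with known fold changes. Those counts hold only the counting noise that the test assumes, so the run checks the calculation and not the spread between libraries. Named loci were the 20 of most reads with a chain in both libraries, all called chains, the 5 of most exons, the 12 mirrored chains of most reads and the chains of most reads in 1 library. No genome sequence was used.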

Additional observations from a re-analysis of the deposited data

How the results depend on the processing

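No paired analysis was possible because the 2 libraries form a single group. The mean share of reads was 0.104% of spliced reads, 0.0802% outside the mitochondrial genome, 0.0256% for 3 or more exons, 0.0311% for models of 2 or more reads, 0.0721% without the Gm10801 locus and 0.111% with all spliced models of genes called antisense (the last 2 chosen after seeing the data, as were the libraries alone for position and sense reads). Leaving out a library gave 0.0761% to 0.0763%. Chains in both libraries numbered 46 with 2 or more reads in each and 52 with 3 or more exons, and 304 single introns were shared. The mirrored share of introns was 23.8% weighted by reads, 31.1% in chains of both libraries, and 15.3% to 22.8% in a library alone. Antisense reads had a median of 2.33% of sense reads, and 4.17% in either library alone. The value of a library alone covers only chains with antisense class reads in it, divided by the sense reads of that library. For the 79.7% of chains with 1 read in all, this smaller divisor cannot lower the ratio, so the 2 medians are unlike measures. The share of chains inside the sense gene was 51.5% to 56.9% in a library alone. The cause of the other shifts was not tested, beyond fewer reads or chains being counted. Called chains numbered 3 to 5 under every alternative. Gpr85 missed the threshold at a minimum of 5 counts (exact binomial test, adjusted p = 0.0504), and Ptn passed it at 20 (exact binomial test, adjusted p = 0.0373). Of the 97 values that could be had, 95 kept their direction and call. Other minimum counts and no size limit reuse the same counts and library totals, so the direction could not change there. With the antisense class alone, every chain still tested except Gpr85 also kept its counts. The 95 are therefore a description and no measure of robustness. With reads of the antisense class alone (chosen after seeing the data) 5 of the 19 chains fell under 10 counts, and the call of Slitrk5 was lost with them. Depth restricts the test between libraries to the chains of 10 or more reads.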
